A study of Mus musculus with 100 samples.

Results

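Wild-type mouse adipocytes were compared with whole wild-type fat from the same labelled depot, both taken after a long high fat diet. The comparison used 6 of the 100 samples of the series, 3 libraries of intra-abdominal adipocytes and 3 of whole intra-abdominal adipose tissue, chosen by their labels and by the table that held them. All 6 carried the strain label Adipoq-Cre-Gps2flox/flox and an age of 19 weeks, and the tables' names gave 12 weeks of high fat diet. Adipoq-Cre drives recombination in cells that express the adiponectin gene, and the series was built to compare mice with and without Gps2 in those cells; here the wild-type genotype stood only in the titles, so whether these mice carried the Cre is not given. Each library was poly(A)-selected and sequenced by strand-specific RNA-seq. How the adipocytes were purified, and whether a library came from 1 animal or a pool, is not stated in the sources used here. The labels state no purpose for this comparison, which sets the transcripts of an adipocyte preparation beside those of the tissue.

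Fat holds adipocytes, which store triglyceride in a single large lipid droplet, together with a stromal and vascular fraction of endothelial cells, pericytes, fibroblast-like progenitors and immune cells. Visceral fat is also covered by a mesothelium, a flat epithelium that lines the abdominal cavity. Adipocytes are usually freed by collagenase digestion and floated away from the stromal fraction, and tissue digestion is known to switch on immediate early and heat shock genes. In obesity, macrophages gather around dying adipocytes and take on a lipid-handling state marked by Trem2 and Gpnmb.

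The deposited values are read counts per transcript after division by each library's size factor, and the 2 groups came from 2 tables normalised separately. Adipocyte or whole-fat origin, table and cell preparation therefore change together and cannot be told apart. All levels below were put on 1 scale over both tables by TMM (trimmed mean of M-values), which assumes that most genes do not differ. A level is this rescaled signal of the most abundant transcript of a gene. A fold change is adipocytes minus whole fat on the log2(value + 1) scale, ± SE with n = 3 a group, and every adjusted p comes from limma with Benjamini-Hochberg adjustment over all genes tested; "higher", "lower" and "called" mean an adjusted p under 0.05. No label says that libraries of a group came from separate animals, so these p-values measure the spread between libraries. Chosen transcripts held 36792721, 38528702 and 37663800 reads in adipocyte libraries 1 to 3 and 29363995, 58773940 and 51207345 reads in fat libraries 1 to 3.

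Of these libraries, 2 stood apart from the rest of their group. Fat library 1 correlated with the other fat libraries at 0.845 and 0.821 (Pearson's r of log2 levels across genes), against 0.971 between fat libraries 2 and 3. It held transcripts of genes known from male germ cells: 12 of 12 such genes reached a level of 50 there, against 1 in each of the other libraries, and Prm1, the sperm protamine, stood at 8588, 0.685 and 0 in fat libraries 1 to 3. These 12 genes made up 0.172% of the signal of fat library 1. Transcripts found in the fat table only are not in that figure. They held 0.209, 0.00312 and 0.0104% of the signal of all transcripts in fat libraries 1 to 3. Adipocyte library 3 kept more immune transcripts than the other adipocyte libraries, as given below with the immune lists, and correlated with fat libraries 2 and 3 at 0.927 and 0.927. Adipocyte libraries 1 and 2 correlated with the same fat libraries at 0.868 to 0.905. Both libraries were kept, and values without them are given with several of the lists. Gps2 itself, the subunit of the NCoR corepressor complex deleted elsewhere in the series, had levels of 1038, 981 and 910.1 in adipocyte libraries 1 to 3 and 1224, 877 and 912 in fat libraries 1 to 3. The groups overlapped and Gps2 was not called (log2 fold change -0.03 ± 0.16, adjusted p = 0.913).

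Of 16194 genes tested, 1335 (8.24%) were higher in adipocytes and 3027 (18.7%) were lower, shares that are the background for the list counts below. The lower genes moved further: 2532 of them were lower by 2-fold or more and 1559 by 8-fold or more, whereas 88 genes were higher by 2-fold or more and 27 by 8-fold or more. All genes tested had a median log2 fold change of -0.06, and the middle 90% ran from -3.93 to 0.74. With the replicate number as a block, since same-numbered adipocyte and fat libraries deviated together, 2844 genes (17.6%) were higher and 3855 (23.8%) were lower. No label gives this pairing. It was inferred from the same values that the block fits, and fat libraries 2 and 3 also deviated together. All p-values and counts with the block below rest on it. Without pair 1, the blocked fit on the other pairs gave 1633 (10.5%) and 2947 (19.0%). Without both libraries that stand apart, adipocyte library 3 and fat library 1, the counts were 1144 (7.42%) and 3424 (22.2%). The scale decided the split between the directions. As deposited, without rescaling, 56 genes (0.342%) were higher and 7268 (44.4%) lower, and the median of all genes was -0.63. With each library scaled to the same total, 137 (0.840%) were higher and 4733 (29.0%) lower, with a median of -0.42. With median of ratios scaling, 1577 (9.74%) were higher and 2985 (18.4%) lower, with a median of -0.04. With upper quartile scaling, 2488 (15.4%) were higher and 2809 (17.4%) lower, with a median of 0.07. Counts of higher genes near 0 under the first 2 scalings thus go with a shift of all genes. List medians are also given below as distances from the median of all genes. A scaling shifts all genes of a library alike, so these distances can hardly move with the scale. Their steadiness is therefore no test of a list. Leaving out 1 library gave 283 (1.73%) to 1328 (8.15%) higher and 1700 (10.6%) to 3368 (20.7%) lower genes, the fewest higher without adipocyte library 2 and the fewest lower without fat library 3, and the most of both without adipocyte library 3. Without each of the other libraries, adipocyte 1 and fat 1, 2 and 3, the higher genes numbered 495 (3.03%), 569 (3.71%), 847 (5.24%) and 472 (2.93%). The lower genes numbered 1916 (11.7%) without adipocyte library 1, 1796 (11.0%) without adipocyte library 2, 2231 (14.5%) without fat library 1 and 1824 (11.3%) without fat library 2.

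**Figure D1:**
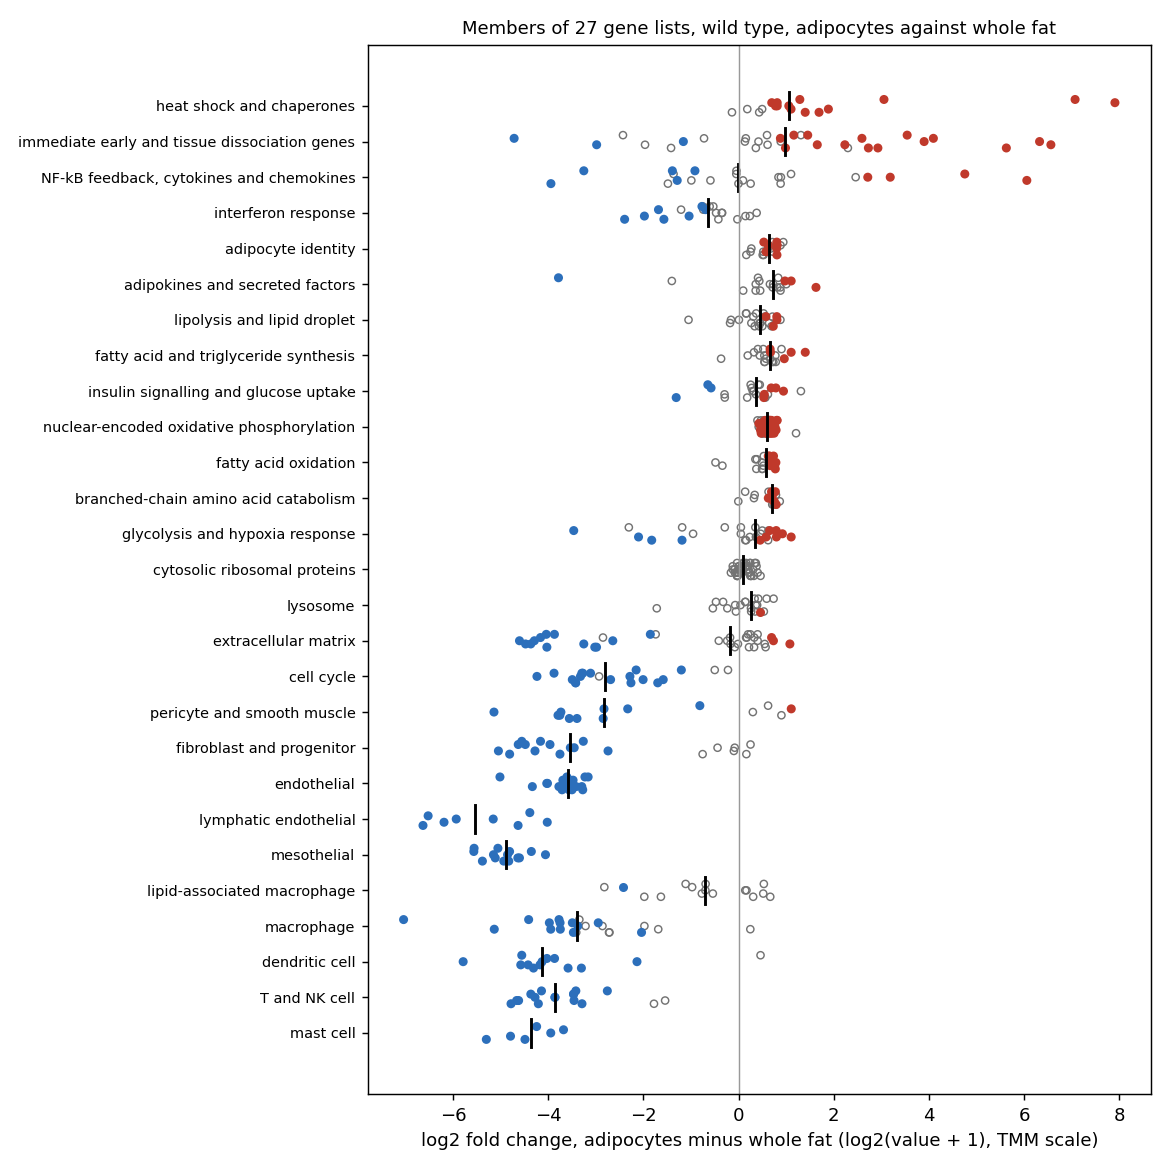
Each point is the log2 fold change (adipocytes minus whole fat, x axis) of 1 tested member of 27 gene lists (y axis); filled red points were called higher, filled blue points lower, open grey points were not called, and the black bar is the list median. Vascular, stromal, mesothelial and immune lists have medians left of 0, down to -5.54. Adipocyte and mitochondrial lists have medians between 0 and 1. Members of the adipocyte identity list run from 0.16 to 0.94, but those of the adipokine list run from -3.78 to 1.62. The stress lists hold the points farthest to the right.

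Genes of the blood vessel wall were much lower in the adipocytes. All 20 endothelial markers tested were called lower, with a median of -3.58, against 18.7% of all genes, and they were called lower under each of the 5 scalings and with each library left out. Pecam1, the junction protein CD31, had levels of 973, 569.8 and 1105 in adipocyte libraries 1 to 3 and 13416, 10804 and 10877 in fat libraries 1 to 3 (log2 fold change -3.77 ± 0.25, adjusted p = 0.000453). Cdh5, the VE-cadherin that seals endothelial junctions, was at 1552, 807 and 1465 in the adipocytes against 16367, 13052 and 14205 in whole fat. The receptor of vascular endothelial growth factor, Kdr, was also lower in every adipocyte library (log2 fold change -3.50 ± 0.18, adjusted p = 0.000347), as was Flt1, its decoy-like relative (log2 fold change -3.48 ± 0.29, adjusted p = 0.000663). Vwf, the clotting factor carrier stored in endothelial granules, was lower still, with a log2 fold change of -5.01, and so were Sox18, an endothelial transcription factor, and Plvap, which forms the diaphragms of fenestrae, at -4.33 and -4.03. None of these was at 0: the median endothelial marker kept 9.11, 5.56 and 10.6% of its whole-fat mean in adipocyte libraries 1 to 3. In these bulk samples, fewer cells of a type and less RNA per cell cannot be told apart.

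Lymphatic endothelium left the fewest transcripts among the vascular lists. All 8 markers were lower, with a median of -5.54, and the median marker kept 0.506, 1.28 and 3.39% of its whole-fat mean. Lyve1, the hyaluronan receptor of lymphatic vessels that some macrophages also carry, had levels of 17.8, 20.4 and 136 in adipocyte libraries 1 to 3 and 1006, 1930 and 1277 in fat libraries 1 to 3 (log2 fold change -5.15 ± 0.76, adjusted p = 0.00504). Ccl21a, the chemokine that draws CCR7-bearing cells into lymphatics, was at 2.74, 3.82 and 6.17 against 649, 1446 and 132. Mmrn1 and Reln, both secreted by lymphatic endothelium, were at 1.37, 1.27 and 9.87 and at 1.37, 0 and 2.47 in the adipocyte libraries, levels of a few reads. The fat libraries themselves differed: Mmrn1 was at 321, 1360 and 103 there, highest in fat library 2. Prox1, the transcription factor that sets lymphatic identity, was called lower (log2 fold change -4.63 ± 0.92, adjusted p = 0.0135) but not with each library left out (adjusted p = 0.0641 without fat library 2).

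Mural cell genes divided. Of 14 pericyte and smooth muscle markers tested, 10 were lower and 1 was higher, with a median of -2.84. Rgs5, the pericyte G protein regulator, had levels of 1034, 481 and 1393 in adipocyte libraries 1 to 3 and 12631, 12189 and 10607 in fat libraries 1 to 3 (log2 fold change -3.73 ± 0.37, adjusted p = 0.00115). Pdgfrb, the receptor that recruits pericytes, followed at a log2 fold change of -3.76 ± 0.48, and the potassium channel genes Kcnj8 and Abcc9 at -3.79 ± 0.28 and -3.56 ± 0.25. Cspg4, the NG2 proteoglycan used as a pericyte marker, ran the other way, with levels of 5201, 5081 and 4367 in adipocyte libraries 1 to 3 and 2116, 2426 and 2255 in fat libraries 1 to 3. Every adipocyte library exceeded every fat library for Cspg4 (log2 fold change 1.11 ± 0.12, adjusted p = 0.00143), and it was called higher with each library left out; 3 genes of the list were higher with the block. Mcam, the adhesion molecule CD146, was at 39311, 33840 and 27199 in adipocyte libraries 1 to 3 and 26071, 29223 and 25499 in fat libraries 1 to 3 and was not called (log2 fold change 0.30 ± 0.17, adjusted p = 0.24; -0.26 as deposited). The log2 fold change of Mcam was thus far above those of Rgs5 and Pdgfrb.

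Fibroblast and progenitor markers were lower for 13 of 19 tested (median -3.53), and all 13 kept the call with each library left out. Pdgfra, the receptor used to sort adipocyte progenitors, had levels of 67.2, 53.5 and 129 in adipocyte libraries 1 to 3 and 1662, 1934 and 1955 in fat libraries 1 to 3 (log2 fold change -4.55 ± 0.32, adjusted p = 0.000495). Pi16, a marker of early progenitors, was at 69.9, 49.7 and 109 against 2201, 2746 and 2342 (log2 fold change -5.05 ± 0.29, adjusted p = 0.00039). Dcn and Lum, small proteoglycans that bind collagen fibrils, were lower, with log2 fold changes of -3.26 ± 0.26 and -2.74 ± 0.39, and so was Cd34, at -4.28 ± 0.38. The other 6 were not called, and 2 of the 19 had a log2 fold change above 0. Dpt, the matrix protein dermatopontin, was 1 of the 6: its levels were 16302, 26237 and 11108 in adipocyte libraries 1 to 3 and 16857, 27812 and 12473 in fat libraries 1 to 3. The groups overlapped for Dpt and it was not called (log2 fold change -0.10 ± 0.39, adjusted p = 0.867). The median marker of this list kept 6.24, 7.12 and 13.2% of its whole-fat mean. Summed over the list, however, the level was 122, 114 and 47.9% of the whole-fat mean in adipocyte libraries 1 to 3.

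All 14 mesothelial markers were lower, with a median of -4.89, and 12 kept the call with each library left out. Msln, the mesothelial surface protein mesothelin, had levels of 34.3, 35.7 and 228 in adipocyte libraries 1 to 3 and 1118, 1787 and 3276 in fat libraries 1 to 3 (log2 fold change -4.81 ± 0.78, adjusted p = 0.00706). Upk3b, a uroplakin of mesothelium, was at 32.9, 80.3 and 303 against 1703, 4135 and 5314. Muc16, the large surface mucin CA125, and Gpm6a, a membrane glycoprotein, had the same log2 fold change, at -5.56 ± 0.85 and -5.56 ± 0.81. Adipocyte library 3 was the highest of the adipocyte libraries and fat library 3 the highest of the fat libraries for Msln, Upk3b, Muc16 and Gpm6a. The median mesothelial marker kept 1.35, 1.77 and 8.05% of its whole-fat mean in adipocyte libraries 1 to 3. Markers of red cells and nerve sheath were low as well. Of 6 erythroid genes tested, 5 were lower, among them Hbb-bs, a beta globin, at 1269, 1493 and 3206 against 12961, 23743 and 18800; Hba-a1 and Hba-a2 are near-identical copies whose split reads are uncertain. Slc4a1, the red cell anion exchanger, had no read in any adipocyte library and was at least 7.36-fold lower, set against a floor of 3 reads per library. Its bound was 5.74-fold without fat library 2, the highest, and its call was lost without fat library 3 (adjusted p = 0.0545). With that gene at its bound the erythroid median was -3.48 instead of -3.98. Of 8 Schwann and neuronal markers 4 were lower, including Uchl1, a neuronal ubiquitin hydrolase (log2 fold change -4.19 ± 0.40, adjusted p = 0.000936).

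**Figure D2:**
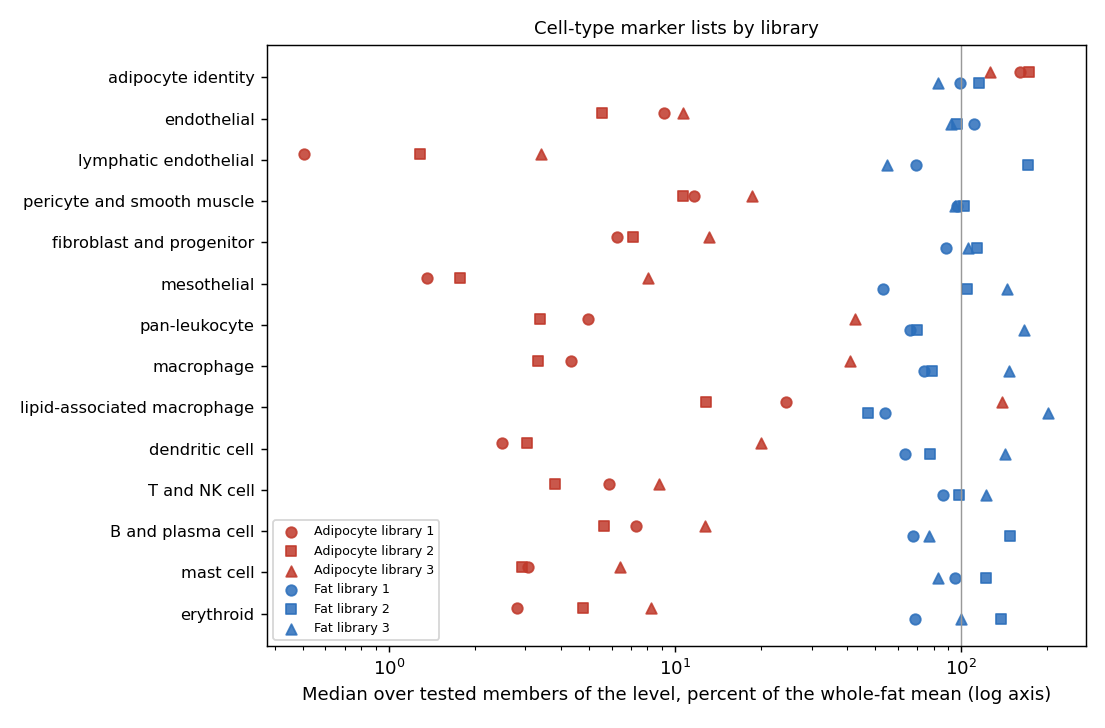
For 14 marker lists (y axis), each symbol is the median, over the tested members, of the level in 1 library as a percent of the whole-fat mean (x axis, log scale); red symbols are adipocyte libraries, blue symbols fat libraries, and the line marks 100%. Endothelial, stromal and mesothelial markers sit below 20% in all 3 adipocyte libraries, while the pan-leukocyte and macrophage lists sit below 5% in libraries 1 and 2 and at 42.6% and 40.8% in library 3.

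Immune genes were lower too, but the size of the difference depended on the library. Ptprc, the leukocyte common antigen CD45, had levels of 45.2, 19.1 and 446 in adipocyte libraries 1 to 3 and 917, 1110 and 2483 in fat libraries 1 to 3. Adipocyte library 3 was far above libraries 1 and 2, and fat library 3 was the highest of the fat libraries. Ptprc was called lower (log2 fold change -4.19 ± 1.10, adjusted p = 0.0327; adjusted p = 0.107 without adipocyte library 1). Of the 10 pan-leukocyte markers 5 were called lower, with a median of -3.21 and groups that did not overlap for 9 (27.5% of all genes lay wholly below). With the replicate block all 10 were lower, and 1 in the blocked fit without pair 1. The count was 0 without adipocyte library 1 or 2 or fat library 1, 2 or 3 and 10 without adipocyte library 3. Without both libraries that stand apart all 10 were lower, with a median of -4.76. The median pan-leukocyte marker kept 4.95, 3.37 and 42.6% of its whole-fat mean in adipocyte libraries 1 to 3, and the summed level of the list ran at 4.63, 3.33 and 52.8% in the adipocyte libraries and 64.3, 68.3 and 167% in the fat libraries.

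Of 22 macrophage markers, 13 were lower (median -3.39); with the replicate block 21 were, and 3 in the blocked fit without pair 1. Single libraries moved this count: it was 4 without adipocyte library 1 or 2 or fat library 3, 5 without fat library 2, 6 without fat library 1 and 21 without adipocyte library 3. Without both libraries that stand apart 21 were lower and 1 higher (median -4.75). Csf1r, the receptor for the macrophage growth factor CSF1, had levels of 247, 194 and 1938 in adipocyte libraries 1 to 3 and 4873, 5335 and 9181 in fat libraries 1 to 3 (log2 fold change -3.77 ± 0.85, adjusted p = 0.0203; adjusted p = 0.0735 without adipocyte library 1). Mrc1, the mannose receptor CD206 of resident macrophages, was at 117, 117 and 1085 against 2869, 3732 and 5478 (log2 fold change -3.98 ± 0.86, adjusted p = 0.018). Ccr2, the chemokine receptor of recruited monocytes, reached only 2.74, 2.55 and 77.7 in the adipocyte libraries, while whole fat had 818, 1162 and 2485 (log2 fold change -7.04 ± 1.22, adjusted p = 0.00866). Retnla, a secreted product of alternatively activated macrophages, was at 199, 363 and 1678 against 11881, 20616 and 21521. Adgre1 and Cd68, the general macrophage markers F4/80 and macrosialin, were not called: Adgre1 was at 111, 66.3 and 1723 in adipocyte libraries 1 to 3 and 1733, 1830 and 4924 in fat libraries 1 to 3, adjusted p = 0.076 (0.00678 with the replicate block). For Cd68 the adipocyte library 3 level of 3327 exceeded fat libraries 1 and 2, at 1897 and 1491 (adjusted p = 0.203; 0.00823 with the block).

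Most lipid-associated macrophage genes were not called. Only Cd9, a tetraspanin, was lower among its 16 genes (log2 fold change -2.42 ± 0.67, adjusted p = 0.0398), and the list median was -0.70. With the replicate block 9 were lower and 3 higher, and 3 and 2 in the blocked fit without pair 1. The median changed sign without adipocyte library 2 (0.08) and without fat library 3 (0.26), was -1.75 without adipocyte library 3, and was -1.97 without both libraries that stand apart. The call of Cd9 was lost without single libraries (adjusted p = 0.116 without adipocyte library 1). Trem2, the lipid-sensing receptor that defines the state, had levels of 86.4, 59.9 and 1554 in adipocyte libraries 1 to 3 and 478, 210.3 and 2433 in fat libraries 1 to 3. Gpnmb, a lysosomal glycoprotein, was at 632, 305 and 10450 in adipocyte libraries 1 to 3 and 1943, 541 and 14605 in fat libraries 1 to 3. For both genes, adipocyte library 3 exceeded fat libraries 1 and 2 and stayed below fat library 3. Trem2 and Gpnmb were not called (adjusted p = 0.424 and 0.676; 0.0128 and 0.0156 with the block). Spp1, the cytokine osteopontin, was highest in fat library 3 (512) and next in adipocyte library 3 (328), against 20.6 to 73 in the libraries numbered 1 and 11.5 to 22.6 in those numbered 2 (adjusted p = 0.615; 0.0487 with the block). The median gene of this list was at 24.4, 12.8 and 139% of its whole-fat mean in adipocyte libraries 1 to 3 and at 54.1, 47.2 and 201% in fat libraries 1 to 3. Some of these genes, Fabp4 among them, are adipocyte genes too. In both preparations the library numbered 3 was thus the highest for the genes that mark this state, as values of 1 library each and with no test.

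Most lymphoid, dendritic and mast cell genes were lower in the adipocytes, and the median marker of each list was highest in adipocyte library 3 among the adipocyte libraries. Summed over the dendritic list, the level was 3.3, 3.26 and 23.1% of the whole-fat mean in adipocyte libraries 1 to 3. The T and NK list summed to 8.78, 5.04 and 41.9%. For B and plasma cell genes the sum was 110, 110 and 99.4%, although the median marker kept 7.29, 5.64 and 12.8%. Of 13 dendritic cell genes, 12 were lower (median -4.13), though the count was 3 without fat library 3, 4 without adipocyte library 1 and 5 without adipocyte library 2 or fat library 2. Zbtb46, a transcription factor of classical dendritic cells that endothelium also expresses, was at 151, 156 and 117 against 683, 577 and 601 (log2 fold change -2.13 ± 0.19, adjusted p = 0.000763). H2-Aa, a chain of MHC class II, was at 456, 368 and 3983 against 10496, 13229 and 28446, again highest in the adipocyte and the fat library numbered 3. T and NK cell genes were lower for 15 of 17 (7 without fat library 3 and 9 without fat library 2), with a median of -3.86. Their levels were small throughout: Cd3e, the T cell receptor signalling chain, was at 4.11, 1.27 and 1.23 in adipocyte libraries 1 to 3 and 20.1, 44.5 and 35.5 in fat libraries 1 to 3, and Lck, its kinase, at 2.74, 1.27 and 7.4 in adipocyte libraries 1 to 3 and 81.8, 82.9 and 89 in fat libraries 1 to 3. Il1rl1, the IL-33 receptor carried by regulatory T cells and type 2 lymphoid cells, was at 4.11, 5.1 and 24.7 against 181, 266 and 341 (log2 fold change -4.78 ± 0.67, adjusted p = 0.00384). Of 13 B and plasma cell genes 8 were lower (5 without fat library 2), including Cd79b, the B cell receptor chain (log2 fold change -4.68 ± 0.60, adjusted p = 0.00279). All 6 mast cell genes tested were lower with each library left out, among them Cpa3, the mast cell carboxypeptidase, at 2.74, 1.27 and 11.1 against 107, 177 and 113. Neutrophil genes were few: 3 of 5 tested were lower (1 without fat library 2), while S100a8, a calcium-binding alarmin, was at 181, 175 and 1075 in adipocyte libraries 1 to 3 and 157, 214 and 414 in fat libraries 1 to 3 and was not called.

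Interferon-response genes were lower for 7 of 20 (14 with the replicate block, 9 in the blocked fit without pair 1) and higher for none (1 with the block), with a median of -0.65. Oasl2, an antiviral oligoadenylate synthetase-like gene, had levels of 125, 127 and 208 in adipocyte libraries 1 to 3 and 707, 595 and 1165 in fat libraries 1 to 3 (log2 fold change -2.39 ± 0.32, adjusted p = 0.00328). Irf1 and Irf9, transcription factors of the interferon pathway, were lower by smaller amounts (-0.77 ± 0.15 and -1.04 ± 0.21). The count of lower genes was 4 without adipocyte library 1 or fat library 3. The pan-leukocyte list was lower in the same libraries, and their part in the interferon difference was not tested. Cell cycle genes were lower for 17 of 20, with a median of -2.81 and counts of 8 without adipocyte library 1, 9 without adipocyte library 2 or fat library 3 and 11 without fat library 1. Mki67, the proliferation antigen Ki-67, was at 74, 34.4 and 256 in adipocyte libraries 1 to 3 and 1525, 1045 and 1360 in fat libraries 1 to 3 (log2 fold change -3.88 ± 0.67, adjusted p = 0.00866). Top2a, the mitotic topoisomerase, was at 78.1, 71.4 and 313 against 1489, 894 and 1218. Adipocyte library 3 was the highest adipocyte library for both genes.

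Matrix genes differed widely within 1 list. Of 35 extracellular matrix genes, 13 were lower and 3 higher, with a median of -0.18, and all 13 kept the call with each library left out. With the replicate block 15 were lower and 5 higher, and without both libraries that stand apart the median was -0.50. Lama2, a laminin chain of basement membranes, was among the lower genes (log2 fold change -3.87 ± 0.35, adjusted p = 0.000896). Col1a1, a chain of type I collagen, had levels of 1804, 1134 and 5138 in adipocyte libraries 1 to 3 and 17238, 14535 and 22490 in fat libraries 1 to 3 (log2 fold change -3.02 ± 0.53, adjusted p = 0.00887). Col3a1, type III collagen, was at 13804, 13335 and 13746 against 77658, 70695 and 112305 (log2 fold change -2.64 ± 0.20, adjusted p = 0.000513), and Col1a2 was lower by a similar amount (-3.25 ± 0.31). Col14a1, a collagen that sits on fibril surfaces, had the largest difference of the list (-4.60 ± 0.49), followed by Mmp2, a gelatinase (-4.48 ± 0.66), and Col8a1 (-4.37 ± 0.46). Fbn1, the microfibril protein fibrillin, was at 737, 514 and 1199 against 13160, 16791 and 15459, and Fn1, fibronectin, at 1138, 837 and 3708 against 19580, 28495 and 36344.

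Several other genes of the basement membrane were not called. Col4a1, a chain of the type IV collagen that surrounds each adipocyte, had levels of 114100, 95275 and 101230 in adipocyte libraries 1 to 3 and 88493, 77765 and 115356 in fat libraries 1 to 3. The groups overlapped and Col4a1 was not called (log2 fold change 0.16 ± 0.19, adjusted p = 0.577; -0.41 as deposited). Col4a2, its partner chain, the linker gene Nid1 and Sparc, a collagen-binding protein, were not called either, though Sparc was higher with the block (0.57, adjusted p = 0.0734; 0.0063 with the block). The 3 higher genes were Thbs1, thrombospondin (log2 fold change 1.08 ± 0.32, adjusted p = 0.0478), and 2 collagens with small differences, Col5a3 (log2 fold change 0.73 ± 0.17, adjusted p = 0.0223) and Col15a1, a basement membrane zone collagen (log2 fold change 0.69 ± 0.18, adjusted p = 0.0319). None of the 3 calls held with each library left out (adjusted p up to 0.156 without adipocyte library 2, 0.0885 without adipocyte library 2 and 0.117 without adipocyte library 2), and as deposited 18 genes of the list were lower and none higher. Relative to the median of all genes the list stood at -0.12 to -0.11 under the 5 scalings.

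**Figure D3:**
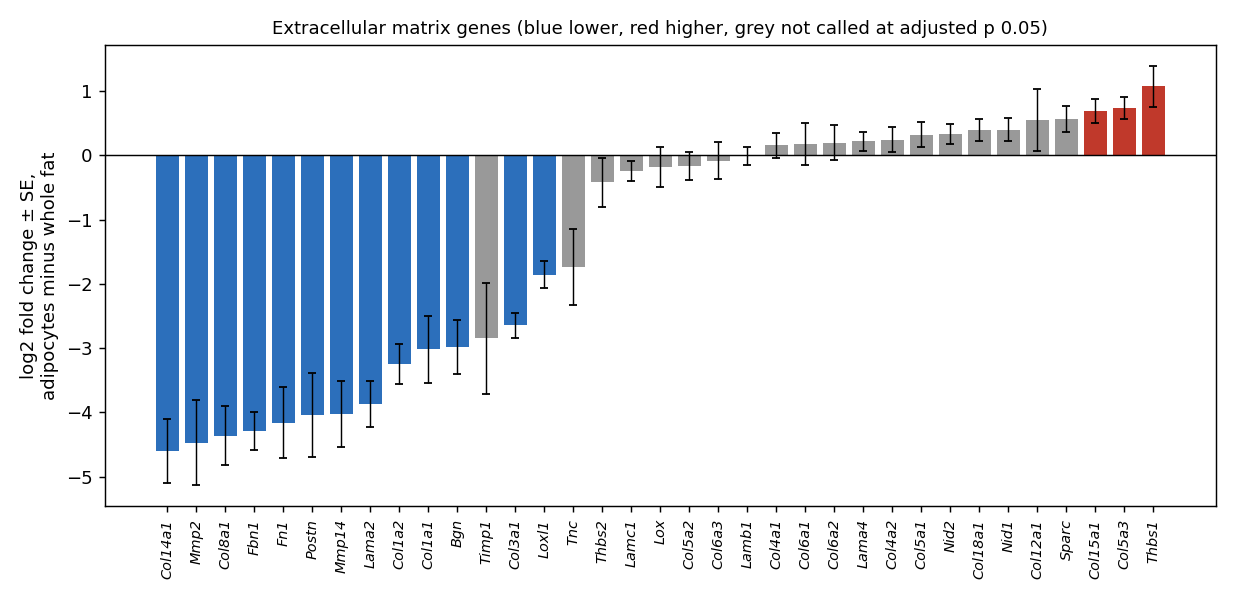
Bars are log2 fold changes (adipocytes minus whole fat, y axis, from 0) of the 35 extracellular matrix genes in order of size, with SE from limma as error bars (n = 3 libraries a group); blue was called lower, red higher and grey not called. The 13 lower genes run from Col14a1 at -4.60 to Loxl1 at -1.85. Lama2 is among them at -3.87, and the type IV and VI collagens, the nidogens and the other laminins of the list stand between -0.24 and 0.40.

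Many of the genes most raised in the adipocytes belong to inducible stress programmes, and the promoters of 3 of them are shown because each carries the letters of a binding motif of the factor that is known to induce it. The windows are the 250 bases before the RefSeq start on GRCm38.p6, written 5′ to 3′ on the strand of the gene, and capitals mark the motif. Hspa1b, an inducible HSP70 gene, lies on chromosome 17 (window chr17:34959239-34959488, minus strand), and the capitals are a heat shock element half-site pair, GAANNTTC. Fos, a subunit of the AP-1 transcription factor, lies on chromosome 12 (chr12:85473640-85473889, plus strand), and the capitals are the core of the cAMP response element, TGACGT. Cxcl1, a neutrophil chemokine, lies on chromosome 5 (chr5:90890995-90891244, plus strand), and the capitals are a kappa B site read on both strands; here the RefSeq start lies 4 bases from that of the transcript measured.
Hspa1b: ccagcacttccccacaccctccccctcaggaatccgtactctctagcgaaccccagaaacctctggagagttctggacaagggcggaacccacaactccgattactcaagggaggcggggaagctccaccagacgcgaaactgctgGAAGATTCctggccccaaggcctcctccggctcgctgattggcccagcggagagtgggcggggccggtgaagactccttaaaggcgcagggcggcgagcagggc
Fos: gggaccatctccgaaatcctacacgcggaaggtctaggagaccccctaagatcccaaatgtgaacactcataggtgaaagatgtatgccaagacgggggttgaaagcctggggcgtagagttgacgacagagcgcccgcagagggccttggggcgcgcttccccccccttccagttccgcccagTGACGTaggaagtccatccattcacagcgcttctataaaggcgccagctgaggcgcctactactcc
Cxcl1: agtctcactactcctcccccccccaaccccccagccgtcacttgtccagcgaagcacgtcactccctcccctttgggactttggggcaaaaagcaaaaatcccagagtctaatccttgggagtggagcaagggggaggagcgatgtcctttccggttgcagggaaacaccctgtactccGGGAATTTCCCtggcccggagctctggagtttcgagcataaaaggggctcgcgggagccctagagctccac
The Hspa1a window differs from that of Hspa1b at 3 bases. Counted on both strands over the 300 bases around the start (250 before, 50 after), GAANNTTC or the reverse order TTCNNGAA was present in 8 of the 10 called heat shock genes with a window (13 were called), against 15.1% of 32851 windows of all genes; GAANNTTC alone was in 8 against 7.86% and TTCNNGAA in 2 against 8.52%. The cAMP response element core was in 4 of 12 called immediate early genes with a window (15 were called), against 7.51%. The CArG box, the site of serum response factor, was in 1 of the same 12 against 1.63% of windows. The kappa B site was in 3 of 12 of them and in 3 of 3 called genes of the cytokine list with a window (4 were called), against 4.51%. Some windows lie away from the start of the transcript measured: by 53656 bases for Dusp1, 12577 for Nr4a1, 1025 for Zfp36 and 318 for Dnaja1. Among windows within 50 bases, a limit chosen after seeing the data, the heat shock element in either order was in 7 of 9 heat shock genes. Of 9 immediate early genes the cAMP response element core was in 3, the kappa B site in 2 and the CArG box in none. A match gives letters, not binding. List members that were not called were not counted, so these counts cannot show whether a motif goes with the rise in adipocytes. Hspa1a and Hspa1b, whose windows are near-identical, are both among the 8 heat shock genes with a match.

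Heat shock genes were mostly raised. Of 17 heat shock and chaperone genes, 13 were higher, against 8.24% of all genes, with a median of 1.05; none was lower. Hspa1b had levels of 21287, 20100 and 16589 in adipocyte libraries 1 to 3 and 135, 174 and 123 in fat libraries 1 to 3. The lowest adipocyte library thus exceeded the highest fat library by far (log2 fold change 7.07 ± 0.17, adjusted p = 2.42e-05). Hspa1a, its neighbour and near-identical copy, was at 19637, 18835 and 15620 against 83, 94.5 and 51.4 (log2 fold change 7.90 ± 0.24, adjusted p = 6.75e-05), and the split of reads between these copies is uncertain. Dnajb1, the HSP40 co-chaperone that works with HSP70, had levels of 19743, 14244 and 9875 in adipocyte libraries 1 to 3 and 2304, 1445 and 1456 in fat libraries 1 to 3 (log2 fold change 3.05 ± 0.29, adjusted p = 0.000999). Hspb1, a small heat shock protein, was at 7020, 6363 and 6767 against 1869, 1484 and 2158 (log2 fold change 1.89 ± 0.15, adjusted p = 0.00064), and Bag3, which hands HSP70 clients to autophagy, at 9193, 8948 and 8785 against 2808, 2514 and 3051 (log2 fold change 1.69 ± 0.11, adjusted p = 0.000451). Hsph1, a large co-chaperone, was called higher (log2 fold change 1.40 ± 0.41, adjusted p = 0.0472), but not with each library left out (adjusted p = 0.131 without fat library 1). In all, 9 of the 13 kept the call with each library left out; as deposited 7 were higher and 1 lower. The list median stood 1.12 above that of all genes under each of the 5 scalings.

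Immediate early genes, which are transcribed within minutes of a stimulus and whose messages are short-lived, stood next to the HSP70 genes in the size of their increases. Of 31 immediate early and tissue dissociation genes, 15 were higher and 3 lower, with a median of 0.98 (5 lower without adipocyte library 3, and 12 higher and 6 lower of 30 without both libraries that stand apart). Fosb, an AP-1 subunit, had levels of 4724, 6225 and 4104 in adipocyte libraries 1 to 3 and 40.3, 74 and 45.6 in fat libraries 1 to 3 (log2 fold change 6.56 ± 0.27, adjusted p = 0.000218). Egr1, a zinc finger transcription factor, was at 33976, 38274 and 19098 against 379, 359.6 and 354 (log2 fold change 6.32 ± 0.26, adjusted p = 0.000218). Fos was at 19486, 21172 and 15397 against 284, 272 and 680.2 (log2 fold change 5.62 ± 0.36, adjusted p = 0.000451), and Jun, its partner, at 44218, 36509 and 19403 against 1955, 1882 and 1719 (log2 fold change 4.09 ± 0.30, adjusted p = 0.000512). Egr1 and Jun were lowest in adipocyte library 3 among the adipocyte libraries, yet no adipocyte library came near the fat libraries. Ccn1, a secreted matricellular protein, was at 15551, 13929 and 20649 against 977, 1074 and 1287 (log2 fold change 3.90 ± 0.18, adjusted p = 0.000283). The 3 lower genes were Ccn2, the connective tissue growth factor, at 58.9, 53.5 and 127 against 1790, 3421 and 1237 (log2 fold change -4.72 ± 0.47, adjusted p = 0.00115), Klf2, a flow-responsive factor of endothelium (log2 fold change -2.98 ± 0.20, adjusted p = 0.000451), and Klf4 (log2 fold change -1.16 ± 0.18, adjusted p = 0.00603). These genes are also expressed by vascular and stromal cells, whose markers were lower in the same libraries; the part of those cells was not tested. Of the called genes 11 of 15 higher and 3 of 3 lower kept the call with each library left out, and as deposited 12 were higher and 3 lower.

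Of 23 cytokine and NF-kB feedback genes 4 were higher and 5 lower, with a median of 0.00; the lower share is close to the 18.7% of all genes. Cxcl1 had levels of 1460, 1624 and 1878 in adipocyte libraries 1 to 3 and 27.7, 24 and 20.3 in fat libraries 1 to 3 (log2 fold change 6.05 ± 0.22, adjusted p = 0.000129). Cxcl2, another neutrophil chemokine, was at 112, 107 and 839.8 against 3.77, 4.79 and 18.1, highest in adipocyte library 3 (log2 fold change 4.75 ± 0.94, adjusted p = 0.0135). Cxcl10, a chemokine induced by interferon, was at 785, 971 and 1038 against 74.2, 70.6 and 195 (log2 fold change 3.18 ± 0.40, adjusted p = 0.00268), and Nfkbiz, an atypical inhibitor of NF-kB, at 958, 1962 and 1275 against 199.7 to 210.3 over the 3 fat libraries (log2 fold change 2.71 ± 0.26, adjusted p = 0.000944). All 4 kept the call with each library left out. The lower genes included Cx3cl1, the membrane-bound chemokine fractalkine, at 27.4, 11.5 and 21 against 335, 303 and 276 (log2 fold change -3.94 ± 0.37, adjusted p = 0.000936), and Icam1, an adhesion molecule of activated endothelium, at 69.9, 45.9 and 159 against 738, 706 and 879 (log2 fold change -3.25 ± 0.44, adjusted p = 0.00335). Nfkb1, the p50 subunit precursor, was lower by a smaller amount (log2 fold change -0.92 ± 0.11, adjusted p = 0.00198), and Nfkbia, the classical NF-kB inhibitor, was not called (0.09 ± 0.19, adjusted p = 0.731). With the replicate block 7 genes were higher and 7 lower, against 17.6% and 23.8% of all genes. Without both libraries that stand apart 4 higher and 8 lower of 21 tested passed, with a median of -0.64.

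**Figure D4:**
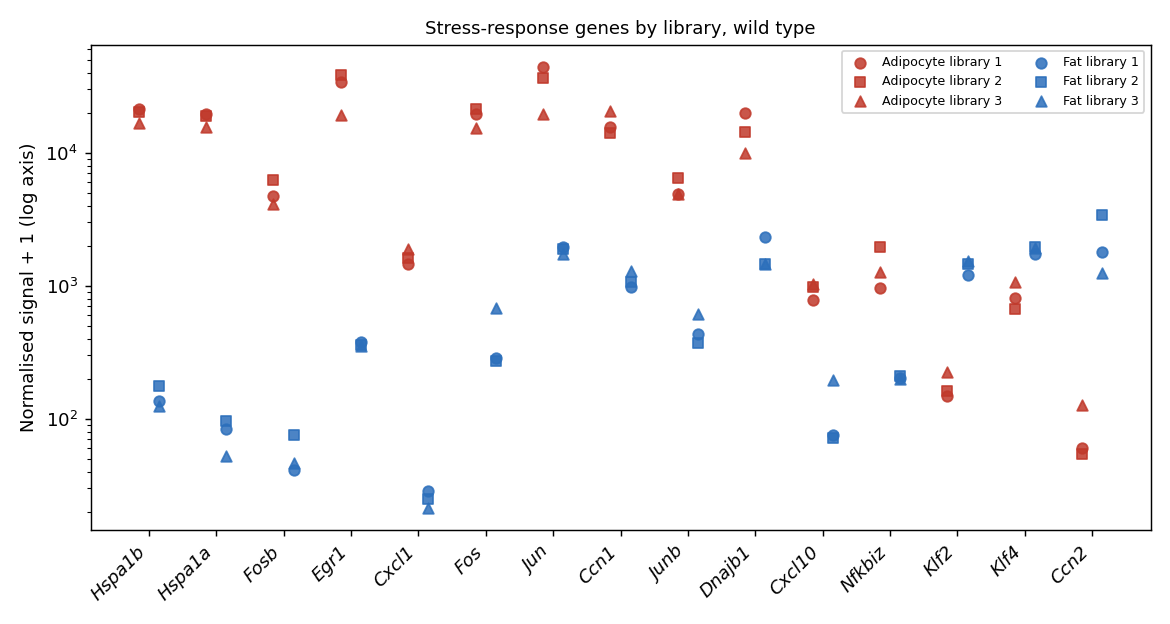
Level of 15 stress-response genes (x axis) in each library (y axis, normalised signal + 1, log scale); red symbols are adipocyte libraries and blue symbols fat libraries, with circles, squares and triangles for libraries 1, 2 and 3. For Hspa1b, Hspa1a, Fosb, Egr1 and Cxcl1 the red symbols stand more than 1 axis decade above the blue ones, while Klf2, Klf4 and Ccn2 are the reverse, with blue above red.

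Other stress pathways were less uniform. The unfolded protein and integrated stress response had 3 of 20 genes higher and 1 lower (median 0.25); with the replicate block 6 were higher and 2 lower. The higher count was 1 without adipocyte library 1 or 2 or fat library 3, and without both libraries that stand apart the median was 0.05. Ppp1r15a, the GADD34 phosphatase subunit, was at 1449, 1431 and 1592 in adipocyte libraries 1 to 3 and 479, 432 and 489.9 in fat libraries 1 to 3 (log2 fold change 1.67 ± 0.12, adjusted p = 0.000462). Hspa5, the endoplasmic reticulum chaperone BiP, was not called (adjusted p = 0.624). It was at 22200, 21437 and 35969 in adipocyte libraries 1 to 3 and 18481, 19614 and 31135 in fat libraries 1 to 3, with the library numbered 3 highest in both groups. Antioxidant and NRF2-target genes were higher for 6 of 21 and lower for 1 (13 and 2 with the block), with a median of 0.57. The higher genes were enzymes and metallothioneins: Gpx4, the lipid peroxide reductase, was at 24926, 30460 and 26018 against 13112, 15759 and 12699 (log2 fold change 0.97 ± 0.15, adjusted p = 0.0055), and Mt1 at 6318, 8550 and 8588 against 3687, 3057 and 5047 (log2 fold change 1.01 ± 0.22, adjusted p = 0.0179). Nqo1, a classical NRF2 target, was the lower gene (log2 fold change -0.78 ± 0.23, adjusted p = 0.0436; adjusted p = 0.134 without fat library 2), and Nfe2l2, which encodes NRF2, was not called (-0.47 ± 0.16, adjusted p = 0.0681, 0.0174 with the block). Of the 6 higher genes only Gpx4 kept the call with each library left out (the higher count was 1 without adipocyte library 2, 2 without fat library 1 and 3 without adipocyte library 1 or fat library 2), and 3 were higher without both libraries that stand apart.

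Adipocyte identity genes differed by small amounts, and most were not called. All 20 adipocyte identity genes had a log2 fold change above 0, from 0.16 to 0.94 with a median of 0.63, and 7 were called higher, none lower. With the replicate block 16 were called. Cidec, which fuses lipid droplets, had levels of 305148, 349620 and 264839 in adipocyte libraries 1 to 3 and 174594, 192644 and 158575 in fat libraries 1 to 3 (log2 fold change 0.80 ± 0.18, adjusted p = 0.0211). Lpl, the lipase that frees fatty acids from lipoproteins, was at 1089380, 958191 and 1048732 against 539780, 667900 and 564295 (log2 fold change 0.81 ± 0.19, adjusted p = 0.0229). Pparg, the master regulator of adipocyte differentiation, was at 11988, 11265 and 12479 against 7822, 7803 and 8347 (log2 fold change 0.58 ± 0.11, adjusted p = 0.0119) and alone kept the call with each library left out. Plin1, the coat protein of the lipid droplet, was called (log2 fold change 0.81 ± 0.23, adjusted p = 0.0443; adjusted p = 0.148 without adipocyte library 2). Adipoq, the adiponectin gene, was at 314645, 260332 and 161740 in adipocyte libraries 1 to 3 and 143296, 144688 and 102614 in fat libraries 1 to 3. All adipocyte libraries exceeded all fat libraries for Adipoq, which missed the threshold (log2 fold change 0.88 ± 0.29, adjusted p = 0.0638; 0.00337 with the block). The count of called identity genes was 1 without adipocyte library 2, 2 without adipocyte library 1 and 3 without fat library 1 or 3. As deposited or with equal totals none of the 20 was called, and the median was 0.07 as deposited; relative to the median of all genes it was 0.69 to 0.70 under all 5 scalings.

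Adipokine genes, which encode hormones released by fat cells, were higher for 3 of 19 and lower for 1, with a median of 0.71 (13 and 1 with the block). The higher count was 1 without adipocyte library 2 and 6 without adipocyte library 3, and without both libraries that stand apart 5 higher and 2 lower passed. Vegfa, the angiogenic factor, was at 10188, 8007 and 6578 in adipocyte libraries 1 to 3 and 4006, 3511 and 3840 in fat libraries 1 to 3 (log2 fold change 1.10 ± 0.17, adjusted p = 0.00607). Rbp4, the retinol carrier, was higher too (log2 fold change 0.97 ± 0.24, adjusted p = 0.0275). Apln, the apelin gene, was the lower one, at 103, 40.8 and 92.5 against 1186, 899 and 991 (log2 fold change -3.78 ± 0.36, adjusted p = 0.000986). Several hormones varied between libraries of the same preparation. Lep, leptin, was at 129703, 126250 and 284826 in adipocyte libraries 1 to 3 and 85935, 116299 and 199962 in fat libraries 1 to 3, highest in the library numbered 3 of each group (adjusted p = 0.508; 0.0399 with the block). Cfd, the protease adipsin, ran the other way, at 161774, 172266 and 39669 in adipocyte libraries 1 to 3 and 96683, 92074 and 20059 in fat libraries 1 to 3, lowest in the library numbered 3 of each group (adjusted p = 0.448; 0.00168 with the block). Retn, resistin, was also lowest in the libraries numbered 3, at 112713, 119899 and 64557 in adipocyte libraries 1 to 3 and 64031, 69199 and 34941 in fat libraries 1 to 3 (adjusted p = 0.123; 0.00149 with the block).

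Genes of lipid turnover also differed by small amounts, and most were not called. Of 21 fatty acid and triglyceride synthesis genes 5 were higher and none lower, with a median of 0.66; with the block 18 were higher and 1 lower. Fasn, fatty acid synthase, was at 298309, 346856 and 281354 in adipocyte libraries 1 to 3 and 122435, 167617 and 142945 in fat libraries 1 to 3 (log2 fold change 1.10 ± 0.19, adjusted p = 0.00833). Mlxipl, the glucose-sensing transcription factor ChREBP, was at 4165, 2914 and 3115 against 1473, 1088 and 1282 (log2 fold change 1.40 ± 0.18, adjusted p = 0.00272). Scd1, the stearoyl-CoA desaturase, reached 4132319, 3296881 and 2740833 against 1811542, 2106301 and 1332266 (log2 fold change 0.96 ± 0.28, adjusted p = 0.0443; adjusted p = 0.144 without adipocyte library 1). Acly, which makes cytosolic acetyl-CoA, differed more by library than by preparation: 13948, 28793 and 26593 in adipocyte libraries 1 to 3 and 12366, 24238 and 23940 in fat libraries 1 to 3, with the library numbered 1 lowest in each group (adjusted p = 0.723). Lipolysis and lipid droplet genes were higher for 4 of 24 and lower for none (median 0.45), for 16 with the block and for 9 in the blocked fit without pair 1. Pnpla2, the triglyceride lipase ATGL, was at 176120, 190781 and 106956 in adipocyte libraries 1 to 3 and 98993, 104190 and 56134 in fat libraries 1 to 3 (adjusted p = 0.0905; 0.00133 with the block). Lipe, hormone-sensitive lipase, was not called either (0.55 ± 0.23, adjusted p = 0.117; 0.00609 with the block), while Bscl2, the seipin of droplet formation, was (log2 fold change 0.73 ± 0.14, adjusted p = 0.0109). Without single libraries, the synthesis count was 2 without adipocyte library 2 or fat library 1, 2 or 3 and 3 without adipocyte library 1, and the lipolysis count was 1 without adipocyte library 1 or 2 or fat library 1 or 3 and 8 without adipocyte library 3. The lipolysis median changed sign as deposited (-0.11) and stayed 0.51 to 0.52 above that of all genes under the 5 scalings. Cholesterol synthesis genes were higher for 2 of 22 (13 higher and 1 lower with the block), with a median of 0.50, or -0.06 as deposited and 0.00 without both libraries that stand apart. That count is close to the 8.24% of all genes, and it was 0 without adipocyte library 1 or 2 or fat library 2 and 1 without adipocyte library 3 or fat library 1 or 3.

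**Figure D5:**
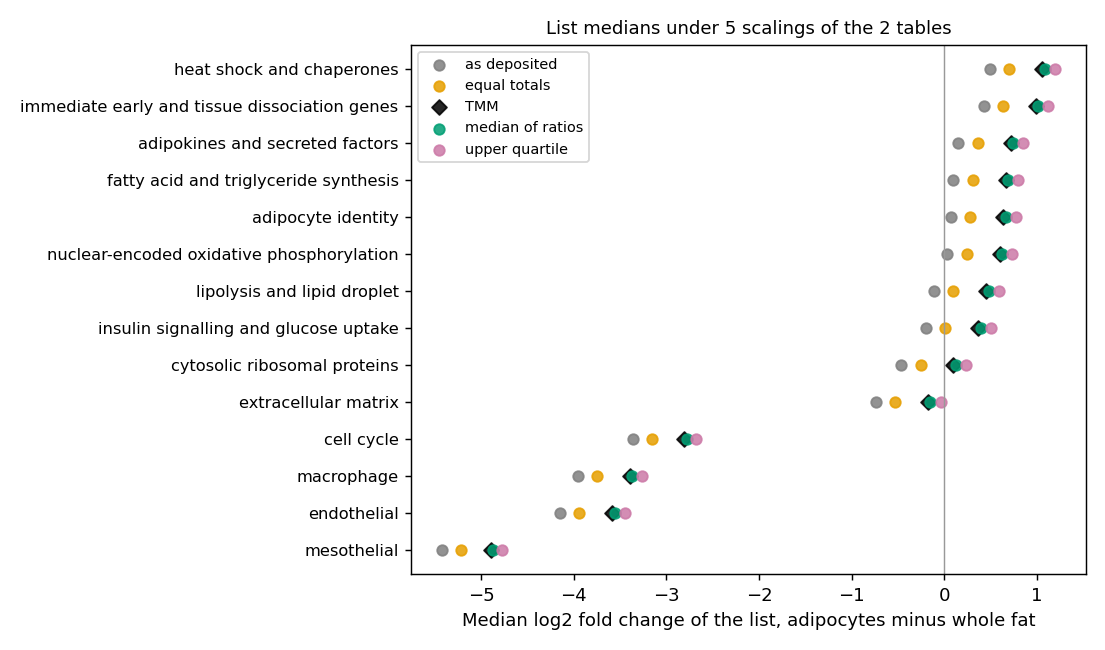
Median log2 fold change (adipocytes minus whole fat, x axis) of 14 lists (y axis) under 5 ways to put the 2 tables on 1 scale; the black diamond is TMM. All lists shift together, so that medians near 0, such as lipolysis, insulin signalling and ribosomal proteins, change sign with the scale, while the heat shock list (0.49 as deposited, 1.05 by TMM) and the endothelial list (-4.15 and -3.58) do not.

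Nuclear genes of the respiratory chain were higher by a small, even amount. Of 63 nuclear-encoded oxidative phosphorylation genes 48 were higher, none was lower, and the median was 0.59 (range 0.40 to 1.21). In 60 of the 63 all adipocyte libraries lay above all fat libraries, against 19.0% of all genes tested. Cox5b, a subunit of cytochrome c oxidase, was at 4563, 5308 and 4164 in adipocyte libraries 1 to 3 and 2521, 3077 and 2454 in fat libraries 1 to 3 (log2 fold change 0.80 ± 0.14, adjusted p = 0.00951). Cox6b1, of the same complex, was at 16325, 18319 and 16107 against 9629, 9982 and 9754 (log2 fold change 0.79 ± 0.12, adjusted p = 0.0046), and Uqcrq, of complex III, at 9271, 10223 and 9121 against 5964, 5782 and 5156 (log2 fold change 0.76 ± 0.12, adjusted p = 0.00554). Ndufa10, of complex I, had the largest difference of the members named here (log2 fold change 0.81 ± 0.19, adjusted p = 0.0244; adjusted p = 0.0878 without adipocyte library 2). Of the 48 genes, 13 kept the call with each library left out; the count was 13 without adipocyte library 2, 16 without fat library 3, 25 without fat library 1 and 26 without adipocyte library 1. As deposited none was called, and with equal totals 5 were; the distance of the list median from that of all genes was 0.66 under all 5 scalings. The 8 tested protein-coding genes of the mitochondrial genome had a median of 0.59 and none was called (3 were higher with the block). For mt-Nd1, a complex I subunit, fat library 2 (267339) stood above 2 of the adipocyte libraries (279521, 253811 and 225487). By contrast the mitochondrial ribosomal RNAs were among the genes most raised: mt-Rnr2, the large one, was at 591545, 547582 and 297280 in adipocyte libraries 1 to 3 and 28351, 20458 and 13198 in fat libraries 1 to 3 (log2 fold change 4.54 ± 0.37, adjusted p = 0.00064) and mt-Rnr1, the small one, at 251330, 185020 and 100184 against 18852, 11531 and 8042 (log2 fold change 3.79 ± 0.42, adjusted p = 0.00182). Whether their capture by poly(A) selection differed between libraries was not tested.

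Genes of substrate oxidation differed by similar small amounts. Fatty acid oxidation genes were higher for 10 of 20 (17 higher and 1 lower with the block), with a median of 0.58. Acadm, the medium-chain acyl-CoA dehydrogenase, was at 34557, 35692 and 31642 in adipocyte libraries 1 to 3 and 18662, 23796 and 17252 in fat libraries 1 to 3 (log2 fold change 0.78 ± 0.16, adjusted p = 0.0153), and Hadha, of the trifunctional protein, at 18029, 21808 and 20306 against 10937, 13408 and 12023 (log2 fold change 0.73 ± 0.14, adjusted p = 0.0122). Cpt1a, the enzyme that admits fatty acids to mitochondria, went the other way without a call (-0.34 ± 0.19, adjusted p = 0.218; 0.0308 with the block). Of 19 pyruvate oxidation and TCA cycle genes 8 were higher (19 with the block), with a median of 0.59; Pcx, pyruvate carboxylase, was at 126643, 134628 and 83182 against 64954, 73541 and 52451 (log2 fold change 0.83 ± 0.24, adjusted p = 0.0424), and Cs, citrate synthase, at 33249, 42453 and 35783 against 20442, 29134 and 20861 (log2 fold change 0.67 ± 0.19, adjusted p = 0.0399). Branched-chain amino acid catabolism, a prominent pathway of adipocytes, was higher for 7 of 20 (17 with the block), with a median of 0.70. Mcee, which feeds propionate carbon into the TCA cycle, was at 2395, 2418 and 2374 in adipocyte libraries 1 to 3 and 1268, 1439 and 1457 in fat libraries 1 to 3 (log2 fold change 0.79 ± 0.10, adjusted p = 0.00299) and kept the call with each library left out. Bckdha, of the branched-chain ketoacid dehydrogenase, was not called (adjusted p = 0.0792; 0.00179 with the block), and more than 50% of its transcript overlaps exons of another gene. Without 1 library the counts were 0 without adipocyte library 2, 1 without fat library 1 or 3 and 2 without adipocyte library 1 for fatty acid oxidation. For the TCA cycle they were 0 without adipocyte library 1 or 2 or fat library 1 or 3, and for branched-chain catabolism 1 without adipocyte library 2 or fat library 3, 2 without adipocyte library 1 or fat library 1 and 16 without adipocyte library 3. Without both libraries that stand apart the 3 counts were 6, 5 and 11.

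Isoforms of 2 enzymes of insulin action and glucose use diverged between the preparations. Akt2, the kinase that carries the insulin signal in adipocytes, was at 19293, 16855 and 13901 in adipocyte libraries 1 to 3 and 12197, 11506 and 10495 in fat libraries 1 to 3 (log2 fold change 0.54 ± 0.16, adjusted p = 0.0441; log2 fold change -0.02 as deposited). Its relative Akt1 was lower, at 1589, 1977 and 1783 against 4533, 3909 and 4834 (log2 fold change -1.31 ± 0.13, adjusted p = 0.00119). Hk2, the insulin-responsive hexokinase, was at 8487, 7346 and 5923 against 4089, 4293 and 3103 (log2 fold change 0.92 ± 0.19, adjusted p = 0.0144), and Hk1, the widely expressed one, at 605, 569.8 and 579.6 against 6214, 1460 and 1748 (log2 fold change -2.10 ± 0.52, adjusted p = 0.0267). Hk1 was highest in fat library 1 and was also lower without that library (-1.45, adjusted p = 0.00478). Of these 4 calls only that of Akt1 kept with each library left out (adjusted p up to 0.136 without adipocyte library 2 for Akt2, 0.0581 without adipocyte library 2 for Hk2 and 0.0877 without adipocyte library 2 for Hk1). In the insulin signalling list 5 of 21 genes were higher and 3 lower (median 0.36, -0.20 as deposited; 10 and 3 with the block). The higher count was 1 without adipocyte library 2 or fat library 1, 2 without fat library 3 and 3 without adipocyte library 1 or fat library 2, and the lower count 1 without adipocyte library 2 or fat library 3. Irs2, an adaptor of the insulin receptor pathway, was higher (log2 fold change 0.94 ± 0.22, adjusted p = 0.0221), while Ptpn1, the phosphatase that turns the receptor off, and Grb10, a receptor inhibitor, were lower (log2 fold change -0.65 ± 0.16, adjusted p = 0.0272 and log2 fold change -0.58 ± 0.12, adjusted p = 0.0137). Glycolysis and hypoxia-response genes were higher for 8 of 27 and lower for 4 (14 and 5 with the block), with a median of 0.35. The higher count was 4 without adipocyte library 2 and 5 without fat library 1 or 3. The lower count was 2 without fat library 2 or 3, and without both libraries that stand apart 5 higher and 5 lower passed. Pfkl, the liver-type phosphofructokinase, was at 9490, 8935 and 8551 against 5896, 5420 and 5854 (log2 fold change 0.65 ± 0.11, adjusted p = 0.00727). The lower genes were Slc16a3, a lactate exporter (log2 fold change -3.46 ± 0.75, adjusted p = 0.0177), Adm, the vasodilator adrenomedullin (log2 fold change -1.83 ± 0.27, adjusted p = 0.00483), and Ddit4, an mTOR inhibitor (log2 fold change -1.19 ± 0.25, adjusted p = 0.0171), besides Hk1.

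Most regulators of the fat cell were not called. Of 24 adipogenic transcription factors 4 were higher and 3 lower (10 and 5 with the block), with a median of 0.23. The lower share is below the 18.7% of all genes. The higher count was 2 without adipocyte library 1 or 2 and 7 without adipocyte library 3, and 4 in the blocked fit without pair 1. Cebpa was at 26683, 26608 and 20458 in adipocyte libraries 1 to 3 and 20313, 23411 and 17515 in fat libraries 1 to 3 and was not called (0.27 ± 0.17, adjusted p = 0.297). Gata2, a repressor of adipogenesis that endothelial and mast cells also express, was at 23.3, 14 and 12.3 against 369.8, 283 and 302 (log2 fold change -4.23 ± 0.34, adjusted p = 0.000614). Nr2f2 (COUP-TFII) and Tcf7l1 were lower as well (log2 fold change -1.32 ± 0.22, adjusted p = 0.00706 and log2 fold change -1.18 ± 0.25, adjusted p = 0.0174). Of the 6 corepressor complex genes Tbl1x was higher, just inside the threshold (log2 fold change 0.65 ± 0.20, adjusted p = 0.05; adjusted p = 0.162 without adipocyte library 2), and Ncor1 and Hdac3 were not called (0.36 ± 0.21 and -0.08 ± 0.16; Ncor1 had an adjusted p of 0.0253 with the block). Of 15 thermogenic genes 3 were higher and 3 lower, the latter share close to the 18.7% of all genes (6 and 3 with the block). The higher count was 1 without adipocyte library 1 or 2 or fat library 1. The lower count was 0 without adipocyte library 1 or 2 or fat library 2 or 3, so that none of the 3 lower calls held with each library left out. The list median was 0.25, or -0.28 without both libraries that stand apart. Pdk4, which spares glucose by inhibiting pyruvate dehydrogenase, was at 11805, 15477 and 16565 against 6136, 7942 and 6438 (log2 fold change 1.09 ± 0.18, adjusted p = 0.0066), and Cox8b, a respiratory subunit of brown fat, at 1017, 1575 and 1019 against 423, 708 and 552 (log2 fold change 1.10 ± 0.25, adjusted p = 0.0214). Ucp1, the uncoupling protein, was near 0 in both groups (0, 10.2 and 23.4 in adipocyte libraries 1 to 3 and 1.26, 10.3 and 10.9 in fat libraries 1 to 3) and was not tested. Slc27a2, a fatty acid transporter, had no read in the adipocyte libraries and was at least 26.7-fold lower against a floor of 3 reads per library; its fat levels were 11.3, 35.6 and 264. That bound rests on fat library 3: without it the fold was at least 6.05, and the call was lost without single libraries (adjusted p = 0.0593 without fat library 2). Of 19 clock genes Cry1 alone was called (log2 fold change -0.76 ± 0.16, adjusted p = 0.0152; 3 were higher and 4 lower with the block). The count of lower genes was 0 without adipocyte library 1 or 2 or fat library 2 and 2 without adipocyte library 3 or fat library 3. None of 43 cytosolic ribosomal protein genes was called (median 0.10), but as deposited 18 were lower and with the block 5 higher; Rplp0 was at 18459, 19186 and 23626 in adipocyte libraries 1 to 3 and 18418, 14864 and 19853 in fat libraries 1 to 3. Of 21 lysosome genes 1, the proton pump subunit Atp6v0d1, was higher (log2 fold change 0.44 ± 0.13, adjusted p = 0.0463, or -0.12 as deposited; adjusted p = 0.135 without adipocyte library 2). The median of this list was 0.26, or -0.03 without both libraries that stand apart. With the block 8 were higher and 3 lower, and 2 and 4 in the blocked fit without pair 1. Skeletal muscle genes were tested for 5 of 12: Acta1, skeletal actin, was at 3619, 6670 and 2688 in adipocyte libraries 1 to 3 and 1296, 2022 and 1240 in fat libraries 1 to 3 (log2 fold change 1.44 ± 0.36, adjusted p = 0.0274) and Myl1 was higher too (log2 fold change 0.87 ± 0.20, adjusted p = 0.0223). Mylpf, a myosin light chain, was lower (log2 fold change -2.06 ± 0.56, adjusted p = 0.0369). None of these 3 calls held with each library left out (adjusted p = 0.0844 without fat library 3, 0.085 without adipocyte library 2 and 0.138 without fat library 3). Ckm, the muscle creatine kinase, was at or near 0 in every library.

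Several of the single genes with the largest differences belong to these groups, and others are on none of the lists. Among genes with a mean level of 50 or more and groups that did not overlap, the 15 most raised were Hspa1a, Hspa1b, Fosb, Egr1, Cxcl1, Fos, Cxcl2, mt-Rnr2, Snord14e, Rpph1, Jun, Ccn1, mt-Rnr1, Phlda1 and Junb. Snord14e and Rpph1 are short noncoding RNAs whose transcripts overlap exons of other genes by 100% and 73%, so their reads cannot be told apart from those genes. Junb, an AP-1 subunit, was at 4918, 6446 and 4920 against 431, 371 and 615 (log2 fold change 3.54 ± 0.21, adjusted p = 0.000433), and Phlda1, a stress-inducible pleckstrin homology protein, at 4097, 2062 and 2313 against 152, 219 and 279 (log2 fold change 3.67 ± 0.32, adjusted p = 0.000784). Among the 15 most lowered were Cytl1, Ccr2, Fbp1, Alox15, Ccl21a, Mmrn1, Spink2, Reln, Sema3d, Thsd4, Stk26, Tat, Actg2 and Cd209a. Alox15, a lipoxygenase of resident peritoneal macrophages and eosinophils, was at 2.74, 2.55 and 2.47 against 225, 550.0 and 381 (log2 fold change -6.66 ± 0.43, adjusted p = 0.000451). Fbp1, the gluconeogenic fructose bisphosphatase, had its level in fat library 1: 1127, 23.3 and 148 in fat libraries 1 to 3. Spink2, a protease inhibitor of testis, was likewise highest in fat library 1 (657, 17.8 and 45.6), the library with the germ cell genes, and had no read in the adipocytes (at least 61.9-fold lower, or 8.17-fold without that library; adjusted p = 0.0552 without adipocyte library 2). Tat, the tyrosine aminotransferase, had no read there either and was at 5.03, 61.6 and 454 in whole fat, highest in fat library 3 (at least 44.7-fold lower, or 8.6-fold without that library, where the call was lost; adjusted p = 0.128 without fat library 3). Actg2, the enteric smooth muscle actin, was at 748, 179 and 6.51, highest in fat library 1. Its call was lost without adipocyte library 2 (adjusted p = 0.143), as were those of Rpph1 (adjusted p = 0.13) and Fbp1 (adjusted p = 0.0522). The call of Cd209a was lost without fat library 3 (adjusted p = 0.0562). Each of these losses is given for the fit with the largest adjusted p, and most of these genes lost the call in other fits too. Of 6 fits that each left out 1 library, the call was kept in 1 for Tat and in 2 each for Actg2 and Rpph1. It was kept in 3 for Cd209a, 4 for Spink2 and 5 for Fbp1.

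A small number of genes carried much of the signal in both preparations, and the share was larger in the adipocytes. The 50 most abundant genes held 36%, 33.6% and 29.1% of the signal in adipocyte libraries 1 to 3, with a mean of 32.9% ± 3.48 (SD, n = 3). In fat libraries 1 to 3 they held 26.1%, 28% and 22.1%, with a mean of 25.4% ± 3.01 (SD, n = 3). The 3 adipocyte libraries were all above the 3 fat libraries, a difference of 7.52 percentage points (exact two-sided permutation test, p = 0.1, the smallest that 3 against 3 allows). Per kilobase of transcript, the 3 most abundant genes were the same in both groups and in the same order: Fabp4, the fatty acid carrier, Car3, a carbonic anhydrase of fat and muscle, and Scd1.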

How the data were processed

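Poly(A) RNA-seq libraries of wild-type adipocytes (n = 3) and wild-type whole fat (n = 3) were compared; groups and replicate numbers came from the titles. The deposited tables give, for each Ensembl transcript, a signal: the read count after the authors' division by the library's size factor, with each of the 2 tables normalised on its own, as the steps of the values show. The submitters' processing notes list, without roles, the build GRCm38.p4 and DESeq 1.8.3, HTSeq 0.5.3, STAR 2.4.0k, SAMtools and bcl2fastq 2.17; no source used here says whether counting used strand. Dividing by the value of 1 read gave whole reads (within 0.01 read) for 100% of values. A further 1 column of the adipocyte table matched no sample and was not used.

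Of 84202 transcripts in both tables, 598 (0.347% of the signal) had no gene in GENCODE M21 and were left out. The most abundant transcript stood for each of 23754 genes, 41 identifiers that shared a symbol were dropped, and 6.19% of genes had more than 50% of that transcript in exons of another gene. Values were rescaled by TMM (edgeR 4.0.16) over both tables. Genes with a mean of 10 or more were tested by limma 3.58.1 (R 4.3.3, trend and robust moderation) on log2(value + 1), with a single term for preparation. The p-values were adjusted by the Benjamini-Hochberg method at 0.05. The procedure was also run on simulated counts with equal numbers of genes raised and lowered and no library that stood apart. That setting differs from these data and cannot check the assumption of TMM. Deviations from the group means of same-numbered adipocyte and fat libraries correlated across genes at 0.212, 0.232 and 0.370, so the numbers in the titles were taken to pair the libraries. A fit with the replicate block is given with many of the calls and counts that it changes. No label says what a number marks. Fat libraries 2 and 3, which differ in number, also deviated together, at 0.386. The pairing was thus inferred from the same values that the block then fits, and p-values with the block rest on it.

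Alternatives were other scalings, filters, pseudocounts and transcripts, no moderation, a size threshold, edgeR and DESeq2 1.42.0 on the recovered reads, and each library left out. Of 826 genes on 43 lists, 813 were in both tables and 769 were tested (155 higher, 199 lower). The members and lists were chosen with earlier results of these data known, so no list was given a test. Named are Gps2, the first 4 genes of each list, up to 6 called members of largest difference and up to 3 against the list's direction, 3 of highest level where none was called, and the 15 genes most raised and most lowered with a mean of 50 or more; other list genes appear in sentences on their list. Some genes that this rule names are not reported here. Genes in the fat table only (4812) or the adipocyte table only (884) were not tested. Read depth is given with the libraries; bounds set against a floor of 3 reads cover counting error only. Fold bounds without the highest fat library, and motif counts in windows within 50 bases of the measured start, were also added after seeing the data.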

Additional observations from a re-analysis of the deposited data

How the results depend on the processing

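Of 182 named genes tested, 149 were called, and 147 of these kept their direction in every alternative that tested them; the exceptions were Akt2 and Atp6v0d1, as deposited. No gene called in the main analysis was called in the opposite direction in any alternative fitted with 1 transcript a gene. The counts of genes higher and lower moved as follows. Higher genes numbered 2422 with DESeq2, 2587 with edgeR and the replicate block, 2844 with limma and the replicate block, 797 without trend or robust moderation, 29 (and 1159 lower) against a threshold of a 2-fold difference, 137 (4733 lower) with equal totals, 2488 with upper quartile scaling and 56 (7268 lower) as deposited. With each transcript tested alone 4535 of 67993 were higher and 10123 lower, and with 10 or more in every sample 1841 genes were lower, a filter that removes genes under that level in any library. edgeR on the recovered reads without the block gave 1070 higher and 2406 lower genes. Leaving out 1 library gave 283 to 1328 higher and 1700 to 3368 lower. In 2 alternatives chosen after seeing the data, leaving out adipocyte library 3 and fat library 1 together gave 1144 higher and 3424 lower genes, and leaving out pair 1 with the replicate block gave 1633 and 2947. The replicate block added calls for 18 named genes and removed the call of 1. Beside the gains given with their results, Fabp4 (adjusted p = 0.0139) and Hba-a2 (adjusted p = 0.0346) gained a call. The gene that lost its call is not identified here. The share held by the 50 most abundant genes differed by 7.53 percentage points with the longest transcripts and by 5.87 to 9.4 with 1 library left out.

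Apart from Akt2 and Atp6v0d1, log2 fold changes that changed sign belonged to genes that were not called. As deposited they were Acly -0.37, Akt2 -0.024, Atp6v0d1 -0.12, Cebpa -0.30, Col4a1 -0.41, Col4a2 -0.32, Fabp4 -0.046, Hspa5 -0.36, Lep -0.16, Lipe -0.014, Mcam -0.26, Ncor1 -0.20, Nfkbia -0.47, Nid1 -0.16, Rplp0 -0.36, S100a8 -0.13 and mt-Nd1 -0.063. With equal totals they were Acly -0.16, Cebpa -0.087, Col4a1 -0.20, Col4a2 -0.11, Hspa5 -0.15, Mcam -0.055, Nfkbia -0.26 and Rplp0 -0.15. With upper quartile scaling they were Dpt 0.037, Gps2 0.11 and Hdac3 0.054, and with median of ratios scaling Gps2 0.0025. Without adipocyte library 3 and fat library 1 they were Acly -0.27, Dpt 0.15, Gps2 0.17, Hdac3 0.084, Hspa5 -0.18, Lep -0.25, Nfkbia -0.16 and S100a8 -0.74, and without pair 1 in the blocked fit Gps2 0.079. With 1 library left out the ranges were Acly -0.13 to 0.52, Dpt -0.42 to 0.21, Gpnmb -2.50 to 0.30, Gps2 -0.12 to 0.12, Hba-a2 -3.93 to 0.28, Hdac3 -0.21 to 0.041, Hspa5 -0.040 to 0.44, Nfkbia -0.062 to 0.22, S100a8 -0.44 to 0.87 and Spp1 -2.55 to 0.093. The cause of these sign changes was not tested. Leaving out a library leaves a group of 2, whose spread is pooled with that of the other group. Of the list counts 757 of 1032 values stayed within 1.5 times, and of the list medians 437 of 516 kept their sign and moved by 0.5 or less on the log2 scale. Many markers had few or no reads in the adipocytes, and their fold changes depend on the pseudocount; those with no read are given as bounds against the floor of 3 reads. Scaling does not alter a share of the signal, and shares of single gene lists were not tested.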
